A study of Homo sapiens with 8 samples.

Results

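The BCL2 family apoptosis regulators followed here are 10 genes of 22411 measured, namely BCL2, BCL2L1, MCL1, BAX, BAK1, BCL2L11, BID, BIK, BMF and PMAIP1. They were chosen by name, as transcript clusters (the probe sets that together report a locus) that carry 1 of these symbols and no other in the platform annotation, and all 10 were found. RNA came from 8 cultures of SK-N-MC cells, a long-established line from Ewing sarcoma, a tumour of bone and soft tissue. Control cultures (n = 4) received a non-targeting siRNA, and YAP1/TAZ siRNA cultures (n = 4) received a combination of siRNAs against YAP1 and against TAZ, the product of WWTR1. Every culture was transfected with Viromer Blue at a final siRNA concentration of 10 nM and collected at 72 h, in EMEM with serum and antibiotics. All values come from 1 cell line and 1 control siRNA, and each array reads the RNA of a whole culture. In such a bulk measurement, fewer cells holding a transcript and less of it per cell cannot be told apart.

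Proteins of the BCL2 family decide whether the outer mitochondrial membrane stays intact. The effectors BAX and BAK1 form pores in that membrane, which frees cytochrome c and starts the caspase cascade. Pro-survival members hold the effectors and their activators in a groove, and BH3-only members, which share with the others little more than a short helix called BH3, either fill that groove or activate the effectors. YAP1 and TAZ are transcriptional co-activators that act through TEAD proteins, and BCL2L1 has been described as a YAP-dependent survival gene in other cancer cells. The comparison asks how far the mRNAs of pro-survival and pro-death members shift when YAP1 and TAZ are reduced.

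Both siRNA targets were lower on every YAP1/TAZ siRNA array. On the linear scale YAP1 fell by 59.6% and WWTR1 fell by 34.9% (limma adjusted p = 4.73e-05 and 0.00898). WWTR1 missed the threshold of 0.05 with the replicate number as a block (adjusted p = 0.147), with every transcript cluster tested (0.0532) and without control replicate 1 (0.0515). Of the Ewing sarcoma markers, 7 were measured, including CD99, NKX2-2 and STEAP1, and their means over the 8 arrays ran from 6.18 to 15.37 on the log2 scale, all above the median of all genes (5.03). Of these 7, LIPI alone passed, lower by a difference of −0.63 (limma adjusted p = 0.0136), and PRKCB differed by 0.46 (0.102). Of 6 epithelial, 5 blood and 4 sympathetic markers, 2, 1 and 1 had means above that median. Of 6 fibroblast markers 4 did, with DCN at 7.91 and LUM at 6.70. LUM differed by −0.54 (limma adjusted p = 0.185) and was the only 1 of these 6 without overlap, as were 6.22% of all genes. Array medians lay between 4.34 and 4.49, and the number of arrays limits the precision. Control replicate 4 and YAP1/TAZ siRNA replicate 2 were displaced from the remaining arrays on principal component 1, with scaled scores of 0.59 and 0.57 against −0.31 to 0.071. Several results in which they were extreme are therefore given with and without them.

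None of the 10 members passed the test for a difference between the groups. By limma 0 had an adjusted p under 0.05, where 0.214% of all genes did, and 2 had an unadjusted p under 0.05, namely BCL2L1 and MCL1, where 10.3% of all genes did. Both are pro-survival members and both read higher with YAP1/TAZ siRNA, as 7.13% of all genes did at that p. The limma differences of all 10 members lay between −0.11 and 0.16 on the log2 scale. Every 95% interval lay inside a 1.5-fold change in either direction, as it did for 20647 of all 22411 genes. The median difference of the 3 pro-survival members was 0.13 and that of the 7 pro-death members 0.043, beside 0.0075 over all genes. Of the members 8 lay above the median level of all genes, and the genes above that level had a median difference of 0.045. The smallest adjusted p of any member was 0.352, and under the 18 alternative treatments it ran from 0.0771 to 0.677.

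**Figure D1:**
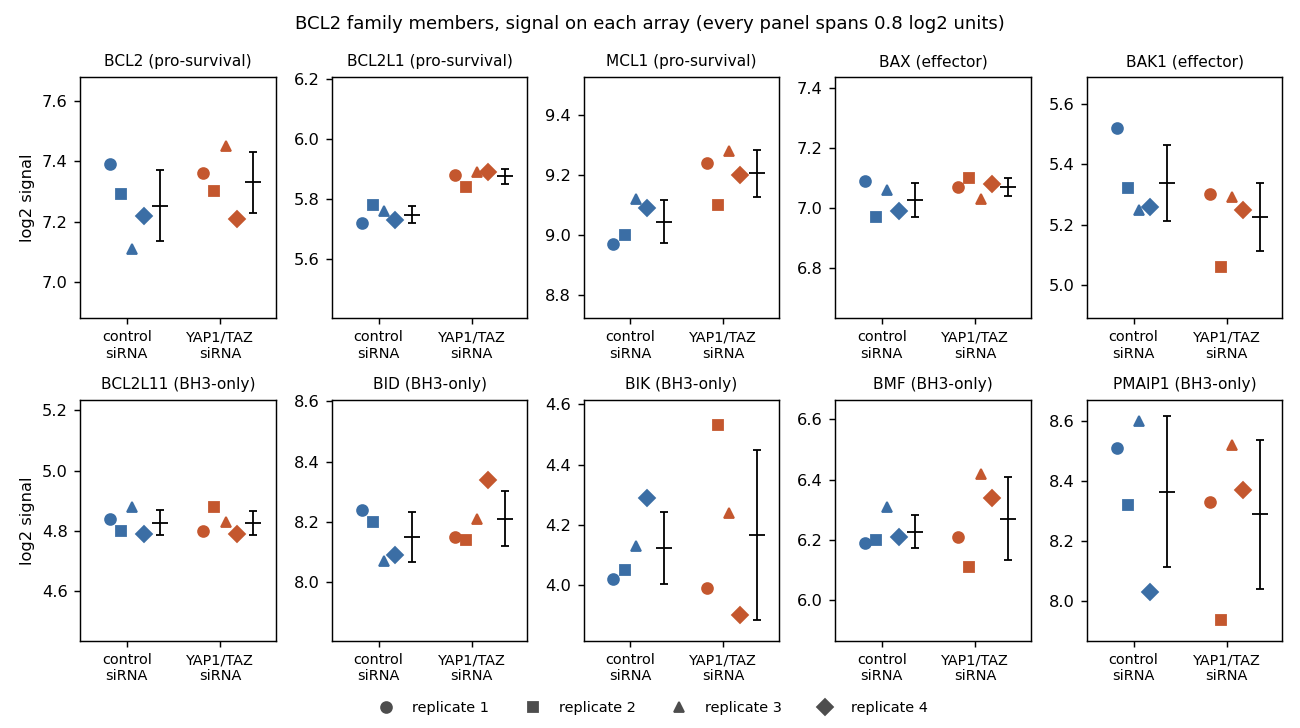
Log2 signal of each member on the 8 arrays, blue for control siRNA and orange for YAP1/TAZ siRNA, with marker shape for the replicate number and black bars for the group mean and SD (n = 4). Every panel spans the same height, and only for BCL2L1 do all YAP1/TAZ siRNA arrays lie above all control arrays.

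The pro-survival genes come first. BCL2L1 encodes BCL-xL, which guards mitochondria by binding BAX, BAK1 and BH3-only proteins, and a shorter splice form, BCL-xS, that promotes death. The transcript cluster reports the locus as a whole, so the splice forms are not separated here. BCL2L1 read 5.72, 5.78, 5.76 and 5.73 on control replicates 1 to 4 and 5.88, 5.84, 5.89 and 5.89 on YAP1/TAZ siRNA replicates 1 to 4. The groups did not overlap, which was so for 6.22% of all genes (4.19% with the YAP1/TAZ siRNA arrays on the higher side), and BCL2L1 was the only member of the 10 for which this held. The group means were 5.75 ± 0.028 and 5.88 ± 0.024 (SD, n = 4 per group), a limma difference of 0.13 (SE 0.044, 95% interval 0.027 to 0.23). This is a 1.09-fold difference, with an interval from 1.02 to 1.17. The limma unadjusted p was 0.0185 and the adjusted p over all genes 0.352, with 0.122 to 0.682 across the alternatives. The 2-sided exact permutation p was 0.0286, the smallest that 4 arrays against 4 can give.

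Because BCL2L1 is the member whose groups separated, the 250 bases upstream of its RefSeq transcription starts (GRCh38.p14) are shown, the first at chr20:31723964-31724213 and the second at chr20:31722869-31723118, both on the minus strand and written 5′ to 3′ in lower case.
BCL2L1 first start: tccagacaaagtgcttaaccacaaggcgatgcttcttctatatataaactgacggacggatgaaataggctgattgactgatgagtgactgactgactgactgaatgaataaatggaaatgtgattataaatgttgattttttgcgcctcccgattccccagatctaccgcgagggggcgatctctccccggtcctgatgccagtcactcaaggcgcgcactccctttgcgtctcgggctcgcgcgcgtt
BCL2L1 second start: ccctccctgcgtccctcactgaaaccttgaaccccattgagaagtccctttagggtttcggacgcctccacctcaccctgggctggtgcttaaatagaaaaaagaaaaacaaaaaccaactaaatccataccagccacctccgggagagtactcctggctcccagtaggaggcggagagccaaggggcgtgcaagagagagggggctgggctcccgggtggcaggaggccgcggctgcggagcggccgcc
Neither the TEAD letters GGAATG nor the AP-1 letters TGANTCA were found on either strand of these windows, extended to 50 bases past the start. Across all 35116 promoter windows of that length, 14% held the TEAD letters and 7.71% the AP-1 letters. Of the 10 members, 8 had windows in the table, 14 in all, and none held either motif. MCL1 and BIK are not among those 8. These counts describe letters in short windows and say nothing about binding. The median G and C content was 68.0% over the 14 member windows and 58.7% over all windows.

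MCL1 is a short-lived pro-survival protein that binds BAK1 and BH3-only proteins and is turned over within hours. MCL1 read 8.97, 9.0, 9.12 and 9.09 on control replicates 1 to 4 and 9.24, 9.10, 9.28 and 9.20 on YAP1/TAZ siRNA replicates 1 to 4. Of the YAP1/TAZ siRNA arrays, 3 lay above every control and replicate 2 lay below control replicate 3. The difference was 0.16 (SE 0.060, 95% interval 0.023 to 0.30), from 9.05 ± 0.071 to 9.21 ± 0.077 (SD, n = 4 per group), or 1.12-fold. The limma unadjusted p was 0.0266 and the adjusted p 0.391, and the exact permutation p was 0.0571. Without both arrays that stood apart the difference was 0.21 with an unadjusted p of 0.00866 and an adjusted p of 0.147. The adjusted p ran from 0.0771, with array quality weights, to 0.686 over all alternatives.

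The unadjusted p values of this pair rested on single arrays and on scaling. Without control replicate 1 the limma unadjusted p was 0.0507 for BCL2L1 and 0.0752 for MCL1, so that 0 members were under 0.05. After quantile normalization it was 0.0647 and 0.075, with differences of 0.11 for each gene, and again 0 members were under 0.05. MCL1 alone was above 0.05 without control replicate 2 (0.0702) and without YAP1/TAZ siRNA replicate 1 (0.0643), 3 (0.0709) or 4 (0.0503). With the replicate number as a block BCL2L1 was at 0.0691 and MCL1 at 0.0419. The difference of both genes stayed above 0 in each of the 18 alternatives, between 0.11 and 0.14 for BCL2L1 and between 0.11 and 0.21 for MCL1. Several alternatives, such as the replicate block and limma-trend, cannot change the difference itself. Leaving out arrays could not bring BCL2L1 to 0 or below, because its groups did not overlap.

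BCL2, the founding pro-survival member, was the third of this class. BCL2 read 7.39, 7.29, 7.11 and 7.22 in controls and 7.36, 7.30, 7.45 and 7.21 with YAP1/TAZ siRNA. The groups overlapped between 7.21 and 7.39, and YAP1/TAZ siRNA replicate 3 alone exceeded all controls. The difference was 0.078 (SE 0.076, 95% interval −0.096 to 0.25, limma adjusted p = 0.819). In linear terms the interval runs from 6.44% lower to 19.0% higher.

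**Figure D2:**
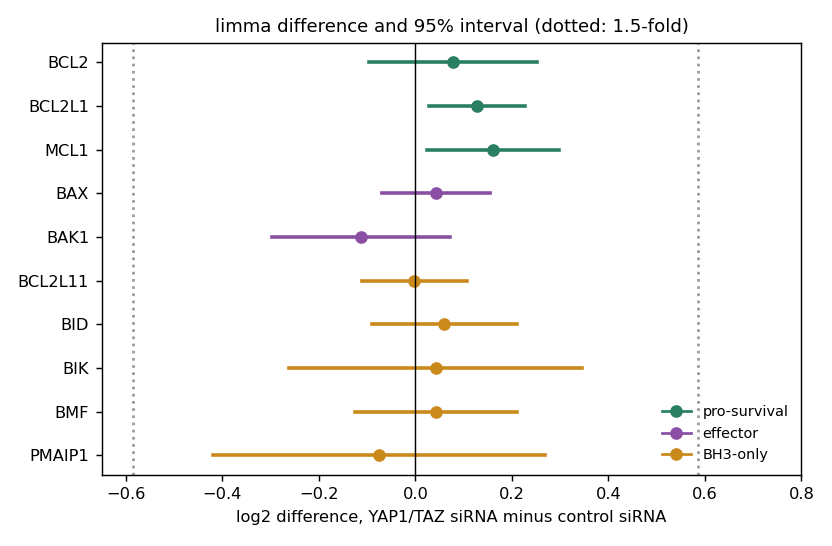
Limma log2 difference (YAP1/TAZ siRNA minus control siRNA) of each member with its 95% interval, coloured by class, and dotted lines at a 1.5-fold change. The intervals of BCL2L1 and MCL1 lie above 0, those of the other 8 members include 0, and all 10 lie between the dotted lines.

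The effectors did not differ beyond the spread between cultures. BAX, which moves from the cytosol to mitochondria to form pores, read 7.09, 6.97, 7.06 and 6.99 in controls and 7.07, 7.10, 7.03 and 7.08 with YAP1/TAZ siRNA. The 8 BAX values spanned only 0.13 on the log2 scale. The BAX difference was 0.043 (SE 0.049, 95% interval −0.069 to 0.15, limma adjusted p = 0.856), which bounds the linear change between 4.70% lower and 11.3% higher. BAK1, the effector that resides on mitochondria, read 5.52, 5.32, 5.25 and 5.26 in controls and 5.30, 5.06, 5.29 and 5.25 with YAP1/TAZ siRNA. Control replicate 1 was the highest BAK1 value and YAP1/TAZ siRNA replicate 2 the lowest, and the remaining 6 lay between 5.25 and 5.32. The BAK1 difference was −0.11 (SE 0.081, 95% interval −0.30 to 0.072, limma adjusted p = 0.721), the lowest of the 10 members. It was −0.052 without control replicate 1 and −0.083 without both arrays that stood apart.

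Among the BH3-only genes, BID and BCL2L11 encode proteins that can activate BAX and BAK1 directly. BID, which caspase-8 cleaves to link death receptors to mitochondria, read 8.24, 8.20, 8.07 and 8.09 in controls and 8.15, 8.14, 8.21 and 8.34 with YAP1/TAZ siRNA. The 2 groups overlapped except for YAP1/TAZ siRNA replicate 4, and the difference was 0.060 (SE 0.066, 95% interval −0.090 to 0.21, limma adjusted p = 0.844). BCL2L11 encodes BIM, which binds every pro-survival member. BCL2L11 read 4.84, 4.80, 4.88 and 4.79 in controls and 4.80, 4.88, 4.83 and 4.79 with YAP1/TAZ siRNA, with a difference of −0.0025 (SE 0.048, 95% interval −0.11 to 0.11, limma adjusted p = 0.993). Its values spanned 0.09, the narrowest range of the 10 members. BCL2L11 also had the only further transcript cluster among them, and that one read 3.83 to 4.28 over the 8 arrays. Both BCL2L11 clusters and BIK had means below the median of all genes, and no detection call for these dim signals was used here.

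BMF and BIK are BH3-only proteins, BMF held at the actin and myosin cytoskeleton until stress and BIK located at the endoplasmic reticulum. BMF read 6.19, 6.20, 6.31 and 6.21 in controls and 6.21, 6.11, 6.42 and 6.34 with YAP1/TAZ siRNA. The spread was wider with YAP1/TAZ siRNA (SD 0.14, against 0.056 in controls), with 2 arrays above all controls and replicate 2 below them. The BMF difference was 0.043 (SE 0.074, 95% interval −0.13 to 0.21, limma adjusted p = 0.912). Without both arrays that stood apart the BMF difference was 0.09. BIK read 4.02, 4.05, 4.13 and 4.29 in controls and 3.99, 4.53, 4.24 and 3.90 with YAP1/TAZ siRNA. The highest BIK value in each group was on the array that stood apart, control replicate 4 and YAP1/TAZ siRNA replicate 2. The BIK difference was 0.043 with all arrays (SE 0.13, 95% interval −0.26 to 0.35, limma adjusted p = 0.96) and −0.023 without those 2 arrays.

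PMAIP1 encodes NOXA, a BH3-only protein that binds MCL1 in preference to BCL2 and BCL-xL. PMAIP1 read 8.51, 8.32, 8.60 and 8.03 in controls and 8.33, 7.94, 8.52 and 8.37 with YAP1/TAZ siRNA. The lowest value in each group was again on control replicate 4 and YAP1/TAZ siRNA replicate 2, 0.45 and 0.47 below the mean of the other 3 arrays of their group. PMAIP1 had the widest range of the 10 members, 0.66, and the widest interval. The difference between the groups was −0.075 (SE 0.15, 95% interval −0.42 to 0.27, limma adjusted p = 0.927), and without the arrays that stood apart the group means were 8.48 and 8.41.

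Over all genes the median absolute displacement of control replicate 4 from the other controls was 0.12, and that of YAP1/TAZ siRNA replicate 2 from the rest of its group 0.15. Their array medians, 4.48 and 4.49, were also the highest, against 4.34 to 4.41 on the rest. BCL2L1 was displaced by −0.023 and −0.047 and MCL1 by 0.060 and −0.14 on these arrays. ATF4, the transcription factor of the integrated stress response, read 11.39, 11.17, 11.28 and 10.77 in controls and 10.96, 10.70, 10.93 and 10.95 with YAP1/TAZ siRNA. Each group's lowest ATF4 value was thus on the same array as its lowest PMAIP1 value. The same held for VDAC2, from the list of mitochondrial pathway genes, displaced by −0.69 and −0.65. VDAC1 of that list was displaced by 0.20 and −0.0033. DDIT3, which encodes the ATF4 target CHOP, read 5.57 on control replicate 4 against 5.71 to 5.88 on the other controls, while YAP1/TAZ siRNA replicate 2 at 5.51 lay within the 5.50 to 5.56 of its group. USP9X, a deubiquitinase that stabilises MCL1, and HUWE1, a ubiquitin ligase that marks MCL1 for degradation, were also displaced downward on both arrays, by 0.44 and 0.80 for USP9X and by 0.42 and 0.54 for HUWE1. Other regulators of the same list were displaced upward there, DYNLL2, a dynein light chain that binds BMF, by 0.56 and 0.27 and FOXO1 by 0.080 and 0.087. TRIB3 was displaced by −0.11 and 0.030. ATF4, TRIB3, USP9X, HUWE1, DYNLL2 and FOXO1 were picked from the list of regulators after their values were seen, as were VDAC1 and VDAC2 from theirs. The part of this displacement in the PMAIP1 values was not tested.

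**Figure D3:**
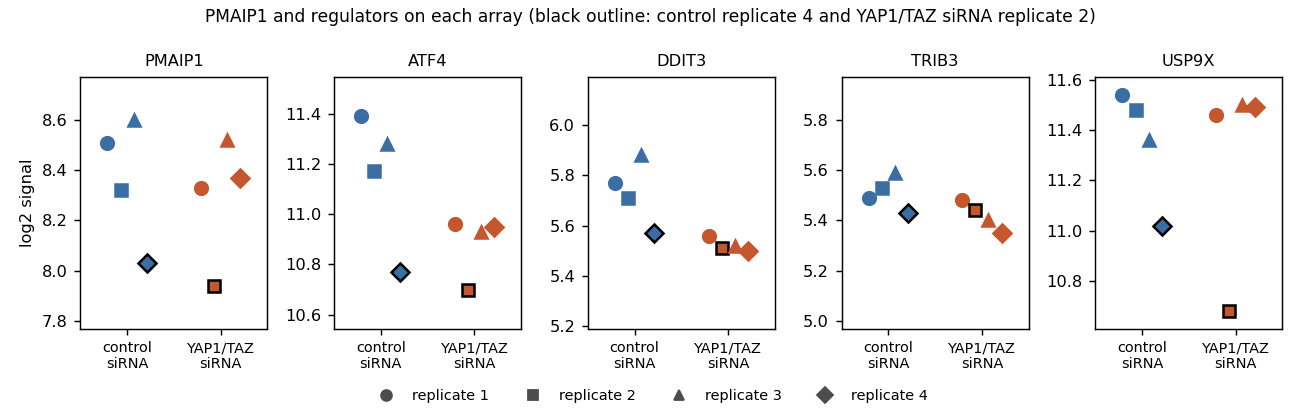
Log2 signal of PMAIP1 and of 4 regulators on each array, blue for control siRNA and orange for YAP1/TAZ siRNA, with a black outline on control replicate 4 and YAP1/TAZ siRNA replicate 2. The outlined arrays are the lowest of their group for PMAIP1, ATF4 and USP9X, whereas for TRIB3 and DDIT3 only the outlined control is.

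The 250 bases upstream of the PMAIP1 start, at chr18:59899746-59899995 on the plus strand of GRCh38.p14 from RefSeq, are shown because factors of the ATF family bind cyclic AMP response elements. Capitals mark letters searched for as a part of such an element, not a whole one.
PMAIP1: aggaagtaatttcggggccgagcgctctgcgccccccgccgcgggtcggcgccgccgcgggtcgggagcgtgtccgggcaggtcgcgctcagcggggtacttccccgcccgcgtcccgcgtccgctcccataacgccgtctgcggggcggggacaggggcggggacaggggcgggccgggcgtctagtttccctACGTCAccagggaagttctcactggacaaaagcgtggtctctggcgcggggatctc
The capitals are ACGTCA, the reverse complement of TGACGT, and begin 56 bases before the start. These letters were looked for after the PMAIP1 values were seen. They occurred on either strand in 7.98% of all promoter windows and in 1 of the 14 member windows, that of PMAIP1. A match of letters is not a bound site.

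Read by class, the average of the 3 pro-survival members was higher on every YAP1/TAZ siRNA array than on every control, and the pro-death averages overlapped. Each gene's values were set relative to its control mean and averaged within a class on every array. The pro-survival average was 0.012, 0.0083, −0.018 and −0.0017 on control replicates 1 to 4 and 0.15, 0.065, 0.19 and 0.085 on YAP1/TAZ siRNA replicates 1 to 4. The lowest of the YAP1/TAZ siRNA arrays was replicate 2. The effector average differed by −0.035 between the groups and the BH3-only average by 0.014, both with overlapping arrays. The pro-survival average minus the pro-death average ran from −0.053 to 0.055 in controls and from 0.083 to 0.17 with YAP1/TAZ siRNA, a mean shift of 0.12, and of 0.15 without the arrays that stood apart. A constant added to an array cancels in this difference. It carries no test, because the members were chosen with results of these arrays known. How often averages of 3 other genes separate in this way was not tested. Outside the members, pro-survival BCL2L2 differed by 0.15, while BCL2A1 and BCL2L10, both below the median gene, differed by −0.055 and −0.17. The BH3-only gene BAD, also outside the members, was higher by 0.19 without overlap (6.22% of all genes).

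**Figure D4:**
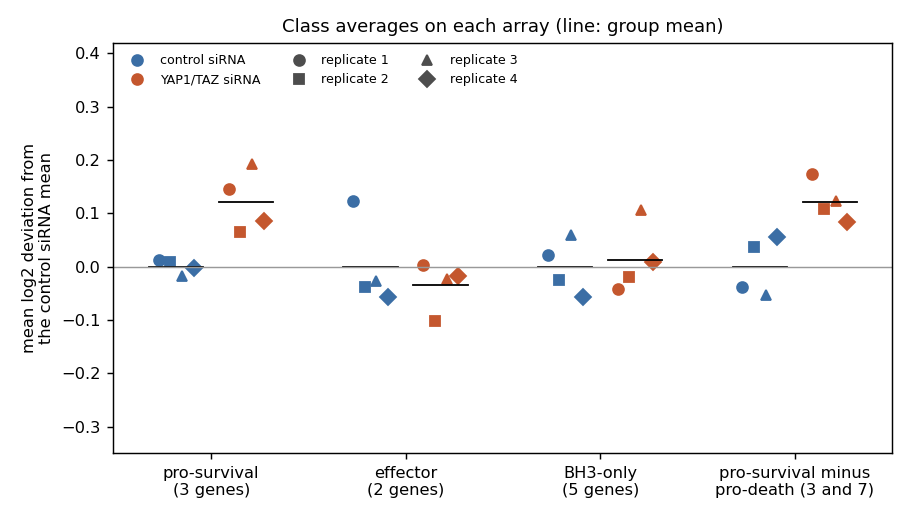
Mean log2 deviation from the control siRNA mean for the 3 pro-survival, 2 effector and 5 BH3-only members on each array, and the pro-survival minus the pro-death average, with a line at each group mean. The groups separate in the first and last column and overlap in the other 2.

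Pairs of known binding partners were set against each other in the same way. MCL1 relative to PMAIP1 was 0.24 higher on average with YAP1/TAZ siRNA, but control replicate 4, at 0.38 above the control mean, exceeded 3 of the 4 YAP1/TAZ siRNA arrays. MCL1 relative to BAK1 was 0.27 higher, from −0.26 to 0.16 in controls to between 0.23 and 0.33 with YAP1/TAZ siRNA. BCL2L1 relative to BAK1 was 0.24 higher, from −0.21 to 0.10 in controls to between 0.17 and 0.37. BCL2 relative to BCL2L11 was 0.080 higher, with overlapping groups. Both BAK1 ratios share the same BAK1 values, and the lowest control in each was replicate 1, where BAK1 was highest. The pairs were not named in advance, and other partners were left out. MCL1 and BCL2L1 had the highest differences of the 10 members (0.16 and 0.13) and BAK1 the lowest (−0.11). Large ratios between these genes follow from that choice and are not added evidence. How often other pairs of genes separate in this way was not tested. BAX, which BCL-xL also binds, differed by 0.043, in the same direction as BCL2L1 and MCL1.

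The rest of the family was read from a list of 12 further BCL2-related genes. By limma 0 of the 12 passed. At an unadjusted p under 0.05 there were 3, each higher with YAP1/TAZ siRNA (7.13% of all genes), and the list median was 0.015. BAD, a BH3-only protein controlled by phosphorylation, read 5.50 to 5.55 in controls and 5.57 to 5.91 with YAP1/TAZ siRNA, without overlap (6.22% of all genes), a difference of 0.19 (SE 0.073, limma adjusted p = 0.421). BCL2L12 differed by 0.19 (SE 0.078, limma adjusted p = 0.448), with overlapping groups. BCL2L2, the pro-survival protein BCL-w, was the third of these and differed by 0.15 (SE 0.064, limma adjusted p = 0.48). HRK, a BH3-only gene of neural cells, and BOK, an effector relative, differed by −0.030 and −0.025. BCL2L2, BCL2A1, BCL2L10, HRK and BOK were named after their values were seen.

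Downstream of the mitochondrion, 0 of 10 genes of the mitochondrial pathway and caspases passed by limma and 1 had an unadjusted p under 0.05 (10.3% of all genes), with a list median of −0.0062. That gene was APAF1, the scaffold of the apoptosome, which read 7.36, 7.36, 7.40 and 7.14 in controls and 7.18, 7.0, 7.17 and 7.17 with YAP1/TAZ siRNA. Control replicate 4 alone overlapped the YAP1/TAZ siRNA arrays, and the difference was −0.19 (SE 0.073, limma adjusted p = 0.422). Without both arrays that stood apart the APAF1 group means were 7.37 in controls and 7.17 with YAP1/TAZ siRNA. ENDOG, a mitochondrial nuclease, differed by 0.26 (SE 0.15, limma adjusted p = 0.616).

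Among 6 inhibitor of apoptosis genes 0 passed by limma and 2 had an unadjusted p under 0.05 (10.3% of all genes), with a list median of 0.10. BIRC5, which encodes survivin and is also a mitotic gene, read 10.02, 10.06, 10.30 and 10.21 in controls and 10.44, 10.28, 10.50 and 10.50 with YAP1/TAZ siRNA, a difference of 0.28 (SE 0.081, limma adjusted p = 0.24). NAIP, better known as an inflammasome sensor, read 7.52 to 7.62 in controls and 7.63 to 7.88 with YAP1/TAZ siRNA, a difference of 0.19 (SE 0.066, limma adjusted p = 0.341). The NAIP groups did not overlap, as in 6.22% of all genes, and for BIRC5 YAP1/TAZ siRNA replicate 2 lay below control replicate 3.

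In the death receptor pathway 0 of 10 genes passed by limma and 2 had an unadjusted p under 0.05 (10.3% of all genes), 1 in each direction, with a list median of −0.019. CASP8, the initiator caspase that cleaves BID, differed by 0.13 (SE 0.053, limma adjusted p = 0.432). TNFRSF1A, the main receptor for tumour necrosis factor, differed by −0.24 (SE 0.11, limma adjusted p = 0.48). Of 12 regulators of BCL2 family abundance 0 passed by limma and 2 had an unadjusted p under 0.05 (10.3% of all genes), with a list median of 0.0025. DDIT3, a stress-induced factor that can raise BCL2L11, differed by −0.21 (SE 0.069, limma adjusted p = 0.32), with no overlap (6.22% of all genes). MARCHF5, a mitochondrial ubiquitin ligase that acts on MCL1 and NOXA, differed by 0.18 (SE 0.071, limma adjusted p = 0.435).

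**Figure D5:**
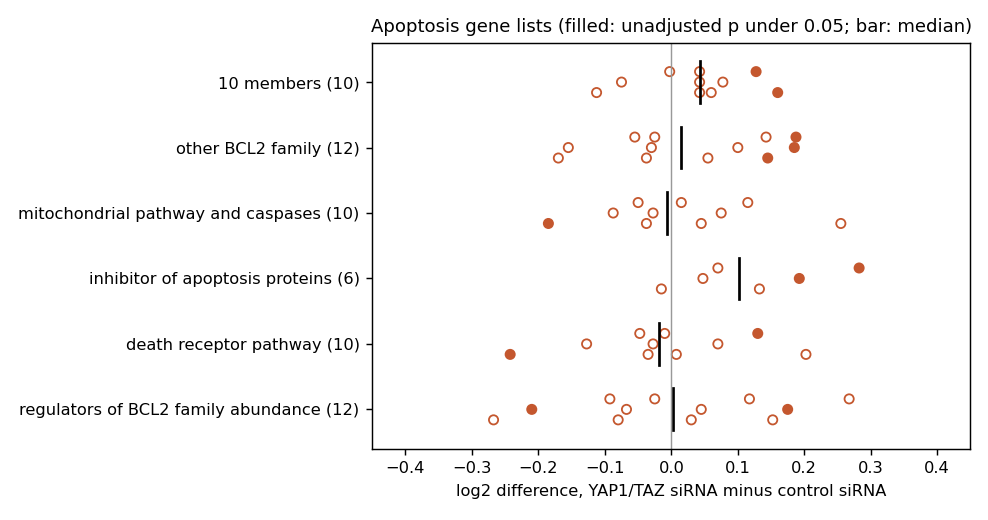
Limma log2 difference (YAP1/TAZ siRNA minus control siRNA) of every measured gene in the 10 members and 5 further apoptosis lists, filled where the unadjusted p was under 0.05, with a bar at each list's median. No gene shown passed after adjustment over all genes, and the list medians lie between −0.019 and 0.10.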

How the data were processed

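The authors deposited a log2 signal for each transcript cluster, and the submitters' processing notes name Transcriptome Analysis Console. Biotin-labelled cRNA was hybridised, per the labels' protocols. The version and settings of Transcriptome Analysis Console and the genome build behind the clusters were not given in the sources used here. The log2 scale was read from the range of 2.27 to 19.93. Groups came from sample titles. Of 67528 clusters, 23781 had 1 gene symbol, updated through RefSeq names. Each of 22411 genes was represented by its brightest cluster, by mean over all arrays, with no filter.

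Differences were tested on values as deposited with limma (version 3.58.1, R 4.3.3) through lmFit and eBayes, leaving 6 residual degrees of freedom. P-values were adjusted by Benjamini-Hochberg over all genes, with a threshold of 0.05. Intervals are limma's 95% intervals. Single members also got a 2-sided exact permutation test over the 70 regroupings. The limma fit was tested on simulated data. Replicates were separate cultures handled in parallel, so p-values leave out variation between experiments.

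Members and lists were chosen with earlier results of these data known. All 10 members are named, and of each further apoptosis list any gene that passed and the 2 with the smallest p, unless stated otherwise. Cell type markers are named as examples. Alternatives were 18 treatments: a replicate block, quantile normalization, median centring, leaving out dim genes, the mean of clusters, testing every cluster, limma-trend with robust eBayes, array weights, leaving out each array, and leaving out or blocking the pair that stood apart. Promoter windows (250 bases before to 50 after a start) are RefSeq's for GRCh38.p14. Protein sequences were not used here.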

Additional observations from a re-analysis of the deposited data

Results flagged for a closer look

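Each member was checked in each group of 4 arrays, 20 groups in all, for 1 array far from the others, judged by whether its gap to the nearest array, as a share of the group's range, exceeded Dixon's 95% critical value. Chance would mark about 1 group in 20, and 1 was marked. BMF on control replicate 3 read 6.31, against 6.19 to 6.21 on the other controls, a gap of 0.833 of the range. The whole range of these controls was 0.12 on the log2 scale.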

How the results depend on the processing

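The count of members with a limma adjusted p under 0.05 was 0 in each of the 18 alternatives, while the count over all genes went from 48 to between 3 (replicate block) and 559 (array quality weights). It was 25 with arrays centred on their medians, 82 without dim genes, 188 without both arrays that stood apart, 439 with that pair as a block, and 12 to 166 with 1 array left out. The count of members with an unadjusted p under 0.05 went from 2 to 1 with the replicate block and 0 after quantile normalization, and was 0 to 2 with 1 array left out. The pro-survival median stayed between 0.11 and 0.14. The pro-death median became −0.019 with array quality weights and −0.023 without both arrays that stood apart. Leaving out dim genes removed BCL2L11 and BIK. Members near 0 changed sign. BAX was −0.0053 after quantile normalization. BCL2L11 was 0.005 after quantile normalization and 0.021 with the mean of its clusters, and −0.021 to 0.015 with 1 array left out. BIK was −0.032 with array quality weights and −0.023 without both arrays that stood apart, and −0.079 to 0.13 with 1 array left out. BMF ran from −0.0075 to 0.096 and PMAIP1 from −0.19 to 0.042 with 1 array left out. WWTR1 missed the threshold with the replicate block (−0.62, adjusted p = 0.147), with every transcript cluster tested (−0.62, 0.0532) and without control replicate 1 (−0.60, 0.0515). The cause of these changes was not tested.

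The labels state no pairing of cultures by replicate number. Deviations from the group means of same-numbered arrays correlated across genes at 0.37, −0.47, 0.016 and −0.39. Control replicate 4 correlated best with YAP1/TAZ siRNA replicate 2 (0.61). The displacement of those arrays weighs on all of these correlations, so they cannot show whether the numbers pair the cultures. The replicate block therefore stands as an alternative only. The number of arrays limits the precision, as the printed intervals show.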
